A study of Rattus norvegicus with 53 samples.

Results

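The mRNA levels of 10 genes that act at or next to the insulin receptor were followed in L6 rat muscle cells for 8 hours of insulin treatment. They are the receptors Insr and Igf1r, the receptor substrates Irs1 and Irs2, the adaptors Shc1 and Gab1, and 4 inhibitors of the pathway, Grb10, Socs3, Ptpn1 and Enpp1. They were chosen by name and role in the pathway, out of 14217 genes that have a probe set assigned to them alone in the platform annotation. Together they have 15 probe sets among the 31099 of the array, and all 15 were bright enough to be tested. Each gene is described at its brightest probe set and its other probe sets served as a check. Insr, Irs1 and Socs3 stood near the middle of the array, with 49.4%, 53.6% and 51.4% of probe sets brighter. They dropped out where only the 15000 brightest were tested.

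L6 is a line of rat skeletal myoblasts that was differentiated into myotubes in 1% serum. The labels still call the cells myoblasts. All of them stood for 8 h in serum-free medium with 5 mM glucose, and at time 0 one culture received 20 nM insulin while a parallel control culture did not. Each culture was a set of separate plates, harvested one after another, and each array from hour 1 on measured a pool of 3 harvests taken 20 min apart, so that hour 1 stands for 20, 40 and 60 min and hour 8 for 440, 460 and 480 min (some labels of the last pool give 400 min). Both sets of arrays at time 0 were untreated, and the paper describes their samples as pools of 3 harvests as well. The paper describes 3 runs of the experiment, on different days. Labels carry the letters a, b and c, which were taken to mark these days. There are 53 arrays in 18 groups of culture and hour. Each group has 3 arrays, save that letter a lacks one for insulin at hour 3.

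Insulin binds the receptor tyrosine kinase encoded by Insr, and at high concentration it also binds the related receptor of Igf1r. The activated receptor phosphorylates docking proteins, above all the products of Irs1 and Irs2, which recruit phosphoinositide 3-kinase and so reach Akt, glucose transport and protein synthesis in muscle. Shc1 and Gab1 lead towards the Ras and MAP kinase pathway, and the inhibitors act on the receptor itself or on its substrates. Irs2 is also known as a gene that FOXO transcription factors switch on in fasting and that insulin represses in liver.

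The regulatory sequence next to 3 of these genes is shown for orientation, since 2 of them hold a searched motif and the third, Gab1, is 1 of the 2 genes that differed between the cultures. RefSeq promoter windows (build GRCr8, 250 bases before to 50 bases after the annotated start) were at hand for 8 of the 10 genes, all but Irs2 and Enpp1. They were searched on both strands for the FOXO motifs GTAAACA and CAAAACA, the E-box CACGTG and the STAT motif TTCNNNGAA. These occur in 3.78%, 6.28%, 6.42% and 8.87% of all 33469 promoter windows of that table. Among the 8 genes there were 2 matches, GTAAACA read from the other strand in Insr, from position -100 to the start site, and CACGTG in Igf1r, from position -31. A match is a description of the letters and says nothing of binding. The 30 bases around each match and the 250 bases before the start of Gab1, which hold no match, read as follows on the strand of the gene, with the motif in capitals.
Insr, chr12:6128885-6128914, minus strand: acgggccgcgtTGTTTACtggccggagtcg
Igf1r, chr1:130959954-130959983, plus strand: tgtgcgcgcgggCACGTGtgcgcggccccg
Gab1, chr19:44035443-44035692, plus strand: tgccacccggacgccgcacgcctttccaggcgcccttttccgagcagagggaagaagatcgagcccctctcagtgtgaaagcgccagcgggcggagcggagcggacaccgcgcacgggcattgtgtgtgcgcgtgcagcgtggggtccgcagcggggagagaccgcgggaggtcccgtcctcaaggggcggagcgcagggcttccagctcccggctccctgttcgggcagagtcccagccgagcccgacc

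Values are log2 levels, so that a difference of 1 is a doubling, and differences are insulin minus control unless stated. Levels of different probe sets cannot be set against each other, because probes differ in how well they bind. Medians of the arrays were 6.30 to 6.37, and precision depends on the number of arrays and of independent repeats. The 10 markers of differentiated muscle were all measured, with a median level of 11.6. The 5 fibroblast and 5 proliferation markers were all bright enough to be tested too, with median levels of 9.72 and 9.03. Of the muscle, fibroblast and proliferation markers 0 were called over hours 1 to 8 by limma. The 4 endothelial and 5 adipocyte markers measured were all below the brightness limit of the test. Of 5 macrophage markers Cd68 was higher by 0.14 (adjusted p = 0.038), and Ptprc and Adgre1 were below that limit. The mean level of the 5 ran from 4.69 to 5.06 over the control and from 4.78 to 5.16 over the insulin arrays. The part of this list in the results was not tested. The cultures of letter b differed already at time 0, where the difference across the 22000 tested probe sets correlated with that of hours 1 to 5 at r = 0.77. In the other letters this correlation was 0.026 (a) and 0.15 (c). In a pool of cells, fewer cells that express a gene and less mRNA per cell cannot be told apart.

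Over hours 1 to 8, 2 of the 10 genes differed between the cultures, Irs2 and Gab1, and both were lower with insulin (limma, Benjamini-Hochberg adjusted p under 0.05). In the same test 12.1% of all 22000 probe sets were called, 6.61% as lower. The median difference of the 10 genes was -0.07, against 0.00 over all tested probe sets. The other 8 genes had mean differences between -0.11 and 0.06. The study had itself singled out Irs1, Irs2, Gab1, Igf1r, Enpp1 and Grb10 on these arrays (Igf1r and Grb10 by another of their probe sets), so their values here are not independent evidence. In the F test for a difference at any hour 1 of the 10 genes passed, Irs2 (adjusted p = 3.3e-07), against 2.42% of the probe sets. Gab1 had an adjusted p of 0.083 there, and of 7.1e-10 with letter as a block.

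**Figure D1:**
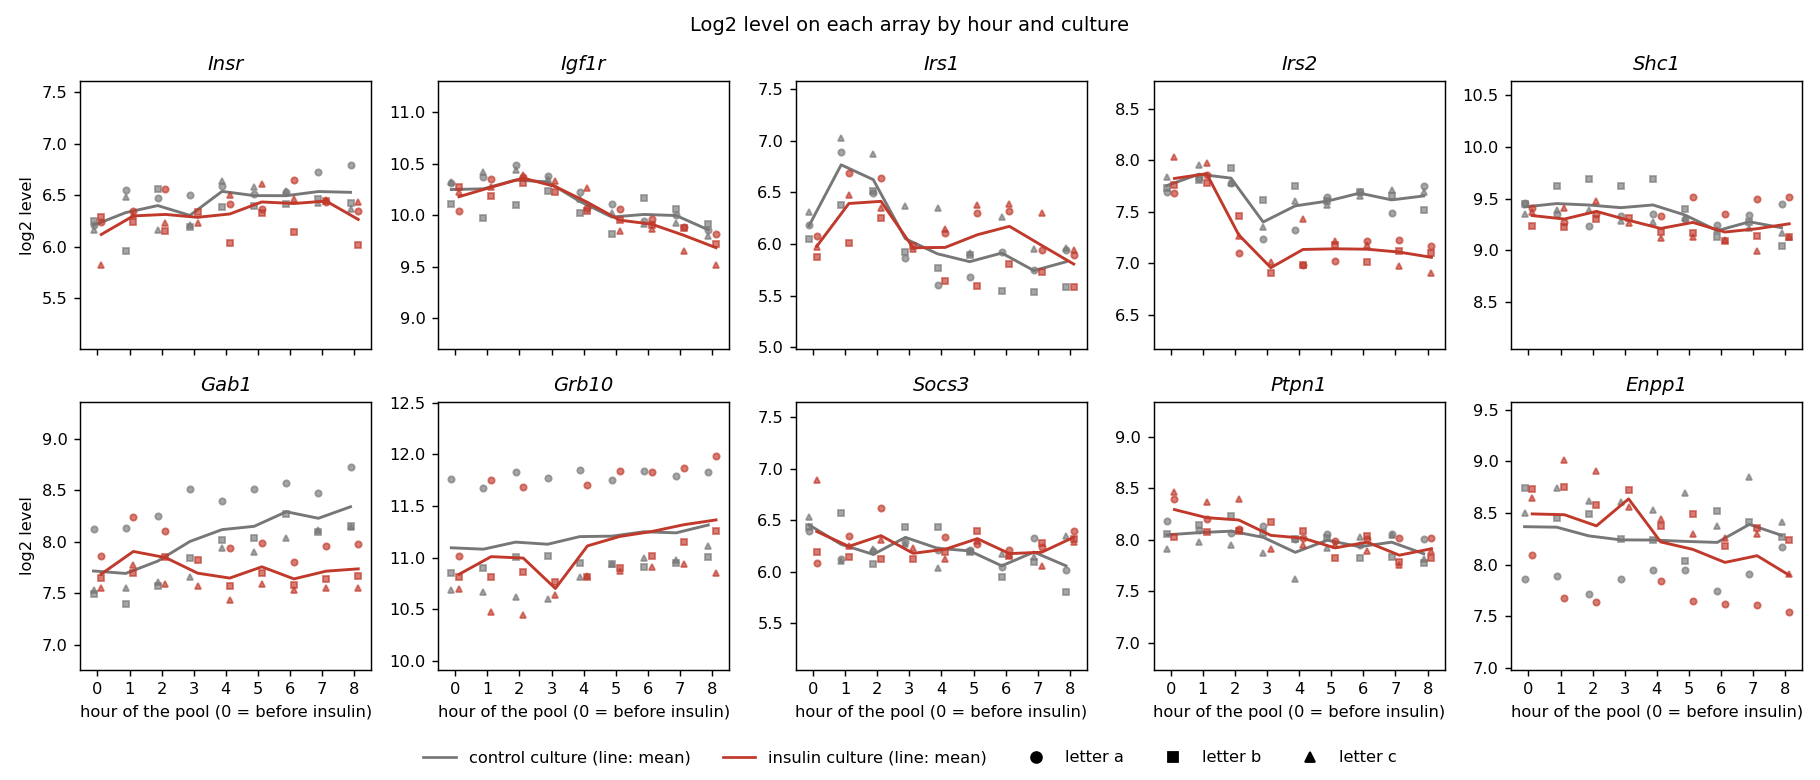
Log2 level (vertical axes, a range of its own for each gene) of the 10 genes by hour of the pool (horizontal axes) in the control and the insulin culture, with a point for each array, shaped by letter, and a line through the group means (at hour 3 the insulin mean holds letters b and c alone). The 2 lines of Irs2 part from hour 2 on. Those of Gab1 part from hour 3 on, at 8.00 and 7.70 there, although letters b and c then differed by only -0.02 and -0.09. The control line of Irs1 stands highest at hours 1 and 2, at 6.77 and 6.62.

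Irs2, the second of the large docking proteins, had the clearest difference. Before insulin its level was 7.70, 7.73 and 7.84 in the control arrays of letters a, b and c and 7.68, 7.76 and 8.03 in the pre-treatment arrays. At hour 1 it was 7.83, 7.81 and 7.95 in the control culture and 7.85, 7.78 and 7.98 with insulin, and the groups overlapped at both times. At hour 2 the control arrays stood at 7.78, 7.92 and 7.78 and the insulin arrays at 7.10, 7.46 and 7.27, without overlap, as for 5.12% of the probe sets in this direction. The arrays of the cultures thus overlapped in the pool of 20 to 60 min and stood apart in that of 80 to 120 min, and they did so again at hours 3 and 5 to 8 (11.1%, 3.89%, 4.9%, 5.09% and 6.09% of the probe sets).

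From hour 2 to hour 8 the Irs2 difference stayed between -0.60 and -0.42. It was -0.55 at hour 2 (SE 0.12, adjusted p = 0.24), -0.54 at hour 6 (adjusted p = 0.022), -0.51 at hour 7 (adjusted p = 0.041) and -0.60 at hour 8 (adjusted p = 0.0054). These last 3 hours were the only calls among the hourly tests of the 10 genes. Of all probe sets 0.332%, 0.268% and 0.718% were called at hours 6, 7 and 8, with 0.05% at hour 4, 0.35% at hour 5 and 0 of 22000 at hours 1, 2 and 3. With letter as a block, hours 2 (adjusted p = 0.041), 4 (0.049) and 5 (0.013) were called for Irs2 as well. With 1 mean per letter, which counts each letter once, these hours were not called (adjusted p of 0.17, 0.21 and 0.24) and hour 3 was (0.027). Hours 2 and 4 missed with letter and hour as pairs (0.052 and 0.053). With any 1 letter left out no single hour was called for it, at adjusted p of 0.066 to 0.86 for hours 6 to 8. Hour 7 also lost its call with 1 mean per letter, without a filter on low values, with arrays centred on their median and without letter b at hours 0 to 5 (adjusted p from 0.063 to 0.098).

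Over hours 5 to 8 the 12 control arrays of Irs2 ran from 7.49 to 7.75 with a median of 7.65, and the 12 insulin arrays from 6.91 to 7.23 with a median of 7.14. Every insulin array thus lay below every control array, which holds in this direction for 0.682% of the probe sets. The difference of these hours was -0.53 (SE 0.058, adjusted p = 2.6e-08), or 1.44-fold lower with insulin, and over hours 1 to 8 it was -0.44 (SE 0.042, adjusted p = 8.4e-10), 1.36-fold lower. Both passed under every alternative run, with -0.46 to -0.40 over hours 1 to 8 and -0.55 to -0.50 over hours 5 to 8. Over hours 1 to 8 all 3 letters lay below 0, letter a at -0.42, letter b at -0.50 and letter c at -0.42.

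Irs2 also fell within the insulin culture, by 0.71 from time 0 to hours 5 to 8 (SE 0.092, adjusted p = 1.1e-05), a comparison in which 3 of the 10 genes were called, all lower, against 1.45% of all probe sets and 0.941% as lower. In the control culture it was -0.12 (SE 0.092, adjusted p = 0.57). The insulin result shares its arrays with the difference of hours 5 to 8, and with 1 mean per letter its adjusted p was 0.073. Set against the difference at time 0, the mean difference of Irs2 was -0.51 (SE 0.12, adjusted p = 0.45), and 0 of the 22000 probe sets passed that test by limma, with 512 at an unadjusted p under 0.05, Irs2 among them as 1 of the 10 genes.

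Gab1, a docking protein that carries signals of several receptor tyrosine kinases to phosphoinositide 3-kinase and the phosphatase Shp2, differed late. At time 0 its level was 8.13, 7.49 and 7.53 in the control arrays of letters a, b and c and 7.86, 7.65 and 7.55 in the pre-treatment arrays. At hour 8 it was 8.73, 8.15 and 8.14 in the control culture and 7.98, 7.67 and 7.56 with insulin. The groups overlapped at time 0 and did not at hour 8, where every insulin array was the lower, as for 6.09% of the probe sets. They were also apart in that direction at hours 4, 6 and 7, as for 4.26%, 4.9% and 5.09% of the probe sets.

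Over hours 5 to 8 Gab1 ran from 7.91 to 8.73 in the control culture with a median of 8.15, and from 7.54 to 7.99 with insulin with a median of 7.66. Letter a was the highest in both cultures, and the ranges overlap because of it. The difference was -0.54 (SE 0.11, adjusted p = 0.0011), 1.45-fold lower with insulin, with -0.64 for letter a and -0.49 for each of letters b and c. Irs2 and Gab1 were the 2 of the 10 genes called for these hours, against 9.32% of the probe sets and 5.31% as lower. For Gab1 the call was lost without letter b (-0.57, adjusted p = 0.067).

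The mean difference of Gab1 over hours 1 to 8 was -0.34 (SE 0.081, adjusted p = 0.0046), 1.26-fold lower. It was not called without letter b (-0.40, adjusted p = 0.098), without letter c (-0.35, adjusted p = 0.073) or with 1 mean per letter (-0.32, adjusted p = 0.10). At hour 3, where letter a has no insulin array, the difference of group means was -0.31, but within letters b and c it was -0.02 and -0.09.

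In the control culture Gab1 was higher late than early in every letter. The control mean went from 7.72 (SD 0.36, n = 3) at time 0 and 7.69 at hour 1 to 8.12 at hour 4 and 8.34 (SD 0.33) at hour 8, and the insulin mean stayed between 7.64 and 7.91. From time 0 to hours 5 to 8 the control culture was 0.54 higher (SE 0.18, adjusted p = 0.066), with 0.44, 0.65 and 0.52 in letters a, b and c. It was called with letter as a block (SE 0.071, adjusted p = 6.7e-07) and with 1 mean per letter (adjusted p = 0.031). The insulin culture was 0.03 from its time 0 (SE 0.18, adjusted p = 0.99), with a 95% interval from -0.34 to 0.39.

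In the first 2 hours Gab1 stood at a difference of 0.12 (SE 0.16, adjusted p = 0.87). At hour 1 all letters were above 0, a at 0.11, b at 0.31 and c at 0.22. From hours 1 and 2 to hours 5 to 8 the difference shifted by -0.66 (SE 0.20, adjusted p = 0.069), in a test that called 0 of the 10 genes and 1.84% of the probe sets by limma, with 3 of the 10 at an unadjusted p under 0.05. With letter as a block that change was called for Gab1 (SE 0.078, adjusted p = 4.2e-07), and for 2631 probe sets in all. The differences of Gab1 at each of hours 4 to 8 were called there too, with adjusted p from 1.2e-05 to 0.0084. With 1 mean per letter the change was not called (adjusted p = 0.073), and of the hours 6 (0.016) and 8 (0.028) were, while hours 4, 5 and 7 had adjusted p of 0.081, 0.32 and 0.057. Without letter a the change was -0.69 (adjusted p = 0.00054), and without letter b at hours 0 to 5 it was -0.59 (adjusted p = 0.51).

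**Figure D2:**
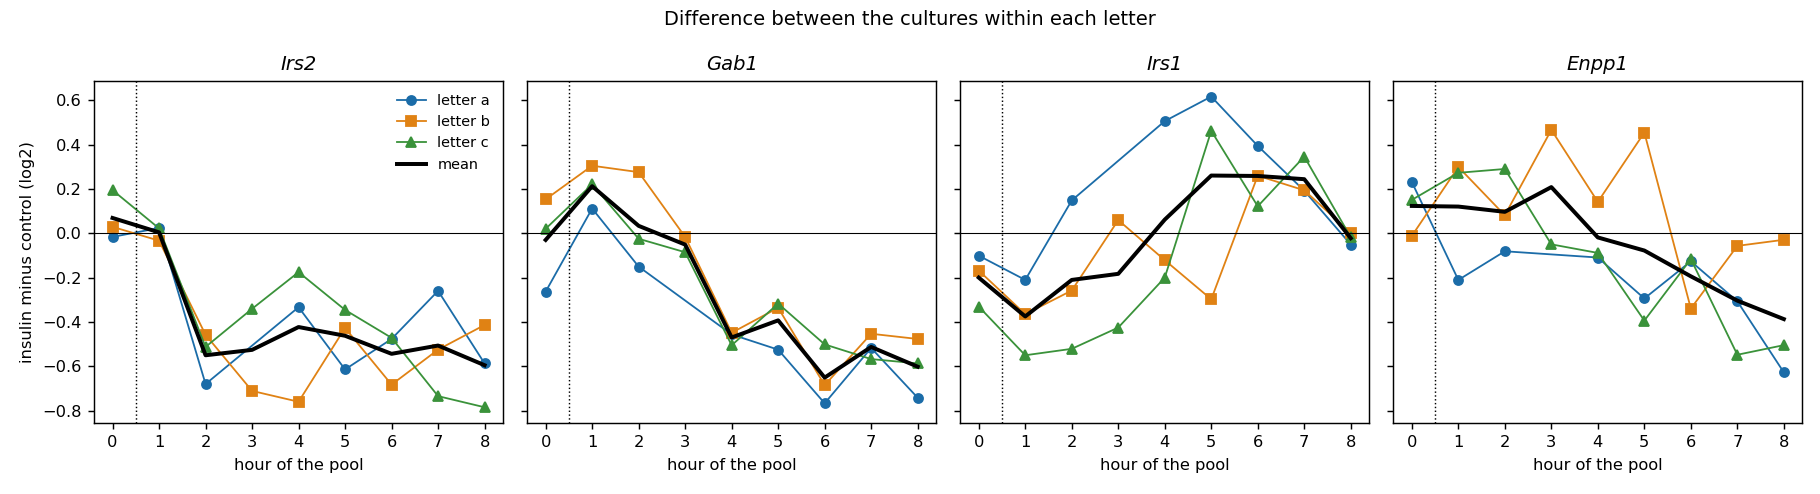
Insulin minus control difference of log2 levels (vertical axis) by hour of the pool (horizontal axis) for Irs2, Gab1, Irs1 and Enpp1, with 1 coloured line for each letter, a black line for their mean and a dotted line at the addition of insulin. Letter a has no value at hour 3 and its line joins hours 2 and 4. The 3 letters of Irs2 stand low together at hour 2, at -0.68, -0.46 and -0.51, and those of Gab1 at hour 4, at -0.46, -0.45 and -0.51.

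Irs1, the docking protein best known for insulin signaling in muscle, did not pass the mean test and had a course of its own. Its control arrays, in the order of the letters, gave 6.18, 6.04 and 6.31 at time 0 and 6.90, 6.38 and 7.03 at hour 1, higher in each letter. By hour 5 it was 5.68, 5.89 and 5.91. The insulin culture had 6.08, 5.88 and 5.98 at time 0, 6.69, 6.01 and 6.48 at hour 1, and 6.30, 5.60 and 6.38 at hour 5. So both cultures were higher at hour 1 than at time 0 in every letter, and by hour 5 the control arrays were all below their time 0.

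The Irs1 difference was -0.29 over hours 1 and 2 (SE 0.15, adjusted p = 0.56) and 0.19 over hours 5 to 8 (SE 0.11, adjusted p = 0.36), which left 0.02 over hours 1 to 8 (SE 0.077, adjusted p = 0.92). All 3 letters were below 0 early, at -0.03, -0.31 and -0.54, and above 0 late, at 0.29, 0.04 and 0.23. By hour, the late difference of Irs1 was 0.26, 0.26 and 0.24 at hours 5, 6 and 7 and -0.02 at hour 8. The pre-treatment arrays were already -0.20 from the controls at time 0. The change from early to late was 0.48 (SE 0.19, adjusted p = 0.20) and was called with letter as a block (SE 0.12, adjusted p = 0.0099) but not with 1 mean per letter (adjusted p = 0.15). The control culture differed by -0.35 between time 0 and hours 5 to 8 (adjusted p = 0.26, with letter as a block 0.025 and with 1 mean per letter 0.085), and the insulin culture by 0.04 (adjusted p = 0.99).

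The early difference was tested for all 10 genes and called for 0, as for 0 of all 22000 probe sets by limma, with 2082 at an unadjusted p under 0.05. Among the 10 genes Irs2 alone had an unadjusted p under 0.05, at -0.27 (SE 0.083, adjusted p = 0.30). With letter as a block 321 probe sets were called and still 0 of the 10 genes.

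**Figure D3:**
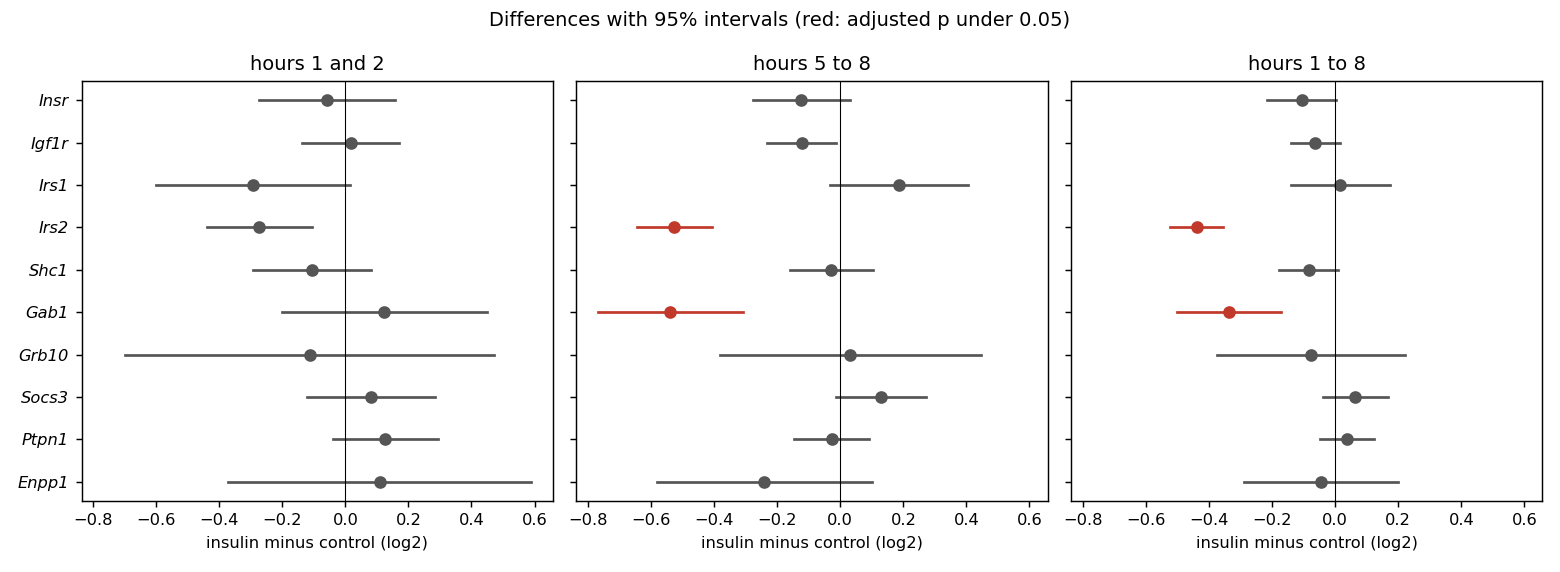
Insulin minus control difference of log2 levels (horizontal axes) for each of the 10 genes, over hours 1 and 2, hours 5 to 8 and hours 1 to 8, with 95% intervals and red for an adjusted p under 0.05. Irs2 and Gab1 are red at hours 5 to 8, at -0.53 and -0.54, and at hours 1 to 8, and no gene is red at hours 1 and 2.

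Neither receptor was called between the cultures. Igf1r encodes the type 1 receptor for insulin-like growth factors, and its difference was -0.06 over hours 1 to 8 (SE 0.039, adjusted p = 0.31, 95% interval from -0.14 to 0.01) and of -0.12 over hours 5 to 8 (adjusted p = 0.17). Its groups were apart at hour 7, with 10.00, 10.06 and 9.93 in the control culture and 9.89, 9.87 and 9.66 with insulin, as for 5.09% of the probe sets. The second probe set of Igf1r was called lower over hours 1 to 8 (-0.22, adjusted p = 0.012), with -0.26 already at time 0.

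Igf1r instead fell with time in both cultures. The control arrays of letters a, b and c were 10.32, 10.11 and 10.33 at time 0 and 9.86, 9.92 and 9.80 at hour 8. Those of the insulin culture were 10.04, 10.27 and 10.23 at time 0 and 9.82, 9.72 and 9.52 at hour 8. In each culture the 3 arrays of hour 8 lay below the 3 of time 0, which held for 3 of the 10 genes in each (7.63% of the probe sets in the control and 5.89% in the insulin culture). From time 0 to hours 5 to 8 Igf1r fell by 0.29 in the control culture (SE 0.085, adjusted p = 0.032), the 1 call among the 10 genes there, against 6.47% of the probe sets (2.83% as lower), and by 0.34 with insulin (SE 0.085, adjusted p = 0.028).

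The falls of Igf1r were below 0 in all 3 letters of both cultures. The control call was lost without letter a (-0.26, adjusted p = 0.17) or c (-0.23, adjusted p = 0.37), the insulin call without letter b (-0.31, adjusted p = 0.15) or c (-0.26, adjusted p = 0.68), and both with 1 mean per letter (adjusted p = 0.13 and 0.40). With letter as a block both passed (adjusted p = 0.0062 and 0.0027). The second probe set gave -0.48 in the control (adjusted p = 0.018) and -0.31 in the insulin culture (adjusted p = 0.34).

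For Insr, the insulin receptor, the mean difference was -0.11 (SE 0.054, adjusted p = 0.22, 95% interval from -0.22 to 0.00), below 0 in all 3 letters, at -0.15, -0.14 and -0.02. Its second probe set gave 0.04 (adjusted p = 0.48), so the 2 probe sets differ in sign. Control arrays of Insr were 6.21, 6.25 and 6.16 at time 0 and 6.79, 6.43 and 6.37 at hour 8, and the insulin arrays 6.24, 6.29 and 5.82 and then 6.34, 6.01 and 6.44. From time 0 to hours 5 to 8 the control culture was 0.31 higher (SE 0.12, adjusted p = 0.13, with letter as a block 0.029 and with 1 mean per letter 0.15) and the insulin culture 0.27 higher (SE 0.12, adjusted p = 0.38).

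Shc1, the adaptor that links the receptor to Grb2 and Ras, was at -0.08 over hours 1 to 8 (SE 0.047, adjusted p = 0.26). The letters disagreed, with 0.08, -0.24 and -0.08 for a, b and c, and letter b had -0.21 at time 0. Without letter a the difference was -0.16 (adjusted p = 0.020). Over hours 1 to 8 the control arrays ran from 9.04 to 9.69 and the insulin arrays from 8.99 to 9.52.

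**Figure D4:**
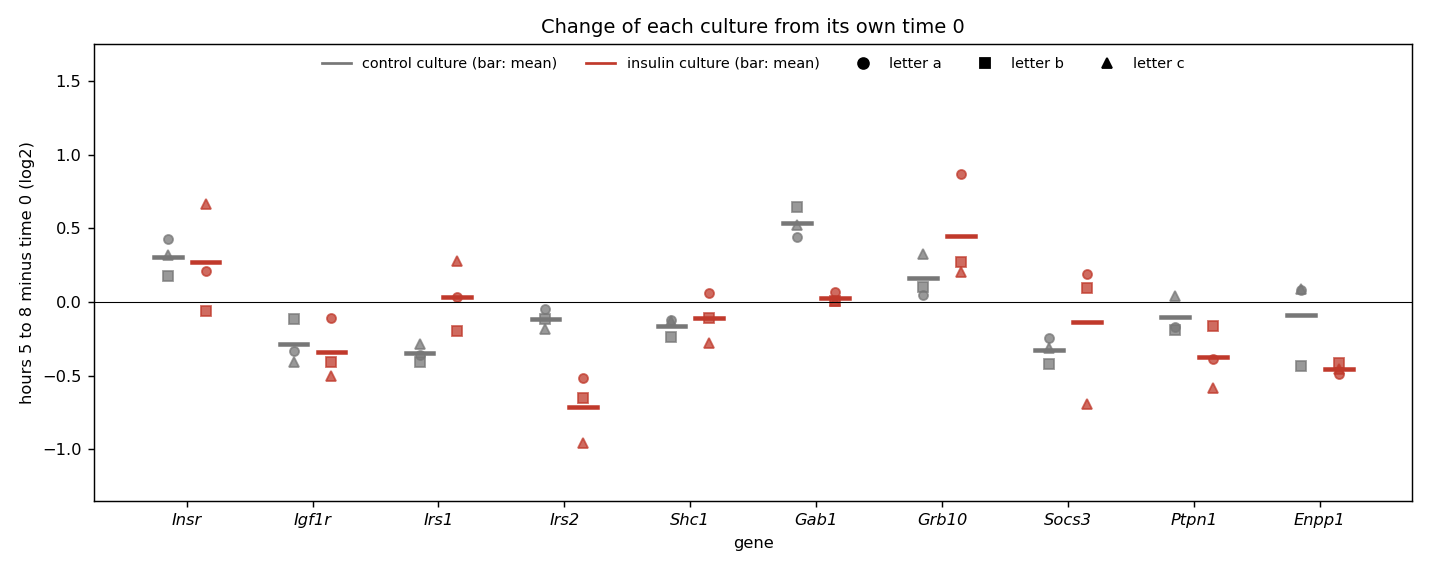
Change of the mean log2 level over hours 5 to 8 from time 0 (vertical axis, log2) for the 10 genes in the control and the insulin culture, with a point for each letter and a bar at their mean. Irs2 stood at -0.71 with insulin and -0.12 without, Gab1 by 0.03 and 0.54, and Igf1r by -0.34 and -0.29.

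Among the inhibitors none was called between the cultures over hours 1 to 8. Ptpn1 encodes the phosphatase PTP1B, which removes phosphate from the activated receptor, and its mean difference was 0.04 (SE 0.042, adjusted p = 0.62). It fell by 0.38 in the insulin culture from time 0 to hours 5 to 8 (SE 0.093, adjusted p = 0.025), and in the control culture it was at -0.11 (adjusted p = 0.62). The pre-treatment arrays of Ptpn1 were 8.39, 8.03 and 8.46 in letters a, b and c, against 8.18, 8.05 and 7.91 in the controls, a difference at time 0 of 0.24 (SE 0.12, adjusted p = 1.00), while over hours 5 to 8 the difference was -0.03. The fall was not called without letter a (-0.37, adjusted p = 0.18), b (-0.49, adjusted p = 0.060) or c (-0.27, adjusted p = 0.48), nor with 1 mean per letter (adjusted p = 0.38), and its second probe set gave -0.64 (adjusted p = 0.059).

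Grb10 encodes an adaptor that binds the receptor and restrains it, and it differed mostly between letters. Its 9 control arrays of letter a ran from 11.68 to 11.85, above the 9 of letter b, from 10.85 to 11.02, and the 9 of letter c, from 10.60 to 11.12. The mean difference was -0.08 (SE 0.15, adjusted p = 0.79), and with letter as a block -0.04 (SE 0.039, adjusted p = 0.47). At time 0 the pre-treatment array of letter a stood at 11.01, against 11.76 in its control, and letters b and c differed by -0.04 and 0.01. In the insulin culture Grb10 was 0.45 higher at hours 5 to 8 than at time 0 (SE 0.32, adjusted p = 0.74, with letter as a block 0.00036 and with 1 mean per letter 0.32). It was 0.87 higher in letter a and 0.27 and 0.20 higher in letters b and c. Its other 2 probe sets had mean differences of -0.12 (adjusted p = 0.81) and 0.11 (adjusted p = 0.71).

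Enpp1 encodes a membrane protein that can bind the receptor and inhibit its kinase, and it too differed between letters. Its control arrays averaged 7.89 in letter a and 8.38 and 8.59 in letters b and c. The mean difference was -0.05 (SE 0.12, adjusted p = 0.85). At hour 8 the control arrays of Enpp1 were 8.17, 8.26 and 8.42 and the insulin arrays 7.54, 8.23 and 7.91. The difference over hours 5 to 8 was -0.24 (SE 0.17, adjusted p = 0.48), and with letter as a block it was called (SE 0.076, adjusted p = 0.018), but not with 1 mean per letter (adjusted p = 0.28). Letters a and c had -0.34 and -0.39 and letter b 0.01, so that the mean of letter b showed next to none of it. By hour, letter b had 0.46 at hour 5 and -0.34, -0.06 and -0.03 at hours 6, 7 and 8. The insulin culture differed by -0.45 from time 0 (adjusted p = 0.62, with letter as a block 0.011 and with 1 mean per letter 0.20), with -0.49, -0.42 and -0.46 in the 3 letters.

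Socs3, a feedback inhibitor that cytokines and insulin can induce, was at 0.06 over hours 1 to 8 (SE 0.051, adjusted p = 0.46, 95% interval from -0.04 to 0.17). Its pre-treatment array of letter c was high, at 6.89 against 6.09 and 6.19 in letters a and b. At hour 5 the insulin arrays of Socs3, at 6.27, 6.40 and 6.30, were all above the controls, at 6.21, 6.19 and 6.20, as for 5.05% of the probe sets, and at hour 3 both insulin arrays, at 6.12 and 6.23, were below the controls, as for 11.1%. The control culture differed by -0.33 between time 0 and hours 5 to 8 (SE 0.11, adjusted p = 0.072, with letter as a block 0.032 and with 1 mean per letter 0.11).

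At time 0, where neither culture had seen insulin, 0 of the 10 genes and 0 of all probe sets were called by limma, with 206 probe sets at an unadjusted p under 0.05. Ptpn1 was the 1 gene of the 10 among these. The differences of the 10 genes at time 0 ran from -0.26 for Grb10 to 0.24 for Ptpn1, and those of Irs2 and Gab1 were 0.07 and -0.03.

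Around these genes, 75 symbols of other receptor-proximal proteins were listed, with an old and a current symbol for 1 gene. Of these 66 were measured and 61 tested, and over hours 1 to 8 1 was higher and 4 were lower, with a median difference of -0.02. These 5 are 8.2% of the 61, against 12.1% of all probe sets, so the list holds no more calls than the array as a whole. The 2 flotillins, scaffold proteins of membrane domains, were both lower, Flot1 at -0.20 (SE 0.035, adjusted p = 9.3e-05) and Flot2 at -0.22 (SE 0.056, adjusted p = 0.0057). Appl2, an adaptor of endosomes, was at -0.28 (SE 0.038, adjusted p = 2.5e-06) and Gigyf1, a partner of Grb10, at -0.16 (SE 0.048, adjusted p = 0.024). Ptpn12, a tyrosine phosphatase, was the 1 that was higher, by 0.19 (SE 0.049, adjusted p = 0.0066). Of 7 tested docking proteins and 10 tested ubiquitin ligases 0 were called by limma, with 1 and 2 at an unadjusted p under 0.05, counts too small to be set against that share.

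Across the 18 group means and 11575 genes compared, the course most like that of Irs2 was that of Sgk1, a kinase close to Akt, at a Pearson r of 0.97, followed by Tjp1 (0.91) and Azi2 (0.91). The courses most like that of Gab1 were those of Pdcd4, an inhibitor of translation initiation, at 0.97, Klhl24 (0.97) and Atosa (0.97). These are descriptions over group means that share arrays, days and normalization.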

How the data were processed

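L6 myotube RNA was hybridised to Affymetrix rat genome arrays. The deposited log2 values had been made by the authors with background subtraction, quantile normalization and RMA (version not given in the sources used here). Cultures, hours and letters were taken from the sample labels. The 22000 non-control probe sets with the highest mean were tested, all with a mean of at least 5.03. The limma package (3.58.1, R 4.3.3) fitted a mean for each group of culture and hour and moderated the variances by a trend on level. P-values were two-sided and adjusted by Benjamini-Hochberg over all 22000, with a threshold of 0.05. The hourly pools of a letter enter as separate arrays, so p-values measure the spread between these arrays. Letters were taken to mark different days, and the deviations of the 2 arrays of a letter and hour correlated in all 26 pairs (r from 0.21 to 0.79). The letters therefore pair the samples, and results of the fit with a letter block stand beside those whose call it changed, with those of 1 mean per letter. Genes were named through the platform annotation, by probe sets with 1 symbol. Other receptor-proximal genes were named only where they passed the mean test, up to 4 a group, and for Irs2 and Gab1 the 3 genes with the highest correlation. The script was tested on simulated data with independent noise and no effect of letter. That test does not show how the fits behave when arrays of a letter correlate. The genes, lists and tests were chosen with earlier results of these data known.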

Additional observations from a re-analysis of the deposited data

Results flagged for a closer look

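For 2 of the 10 genes the difference between the cultures itself passed the test of a change with time when letter was a block. So did 2631 of the 22000 probe sets, against 405 without the block. With 1 mean per letter these 2 genes did not pass (adjusted p = 0.073 for Gab1 and 0.15 for Irs1), and 12 probe sets did. Gab1 shifted by -0.66 from hours 1 and 2 to hours 5 to 8 (adjusted p = 0.069 without the block and 4.2e-07 with it), with -0.62, -0.78 and -0.59 in letters a, b and c. Irs1 shifted the other way, by 0.48 (adjusted p = 0.20 without the block and 0.0099 with it), with 0.32, 0.35 and 0.76 in letters a, b and c. At hour 8 alone the difference of Irs1 was -0.02. In both genes the control culture was the one whose level differed more between the early and the late hours, from 7.69 at hour 1 to 8.34 at hour 8 for Gab1 and from 6.77 to 5.83 for Irs1.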

How the results depend on the processing

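Counts are of the 10 genes called. With letter as a block they rose from 1 to 2 for a difference at any hour, from 0 to 2 for the change from early to late, from 3 to 11 for calls at single hours (9 with letter and hour as pairs, 5 with 1 mean per letter), from 1 to 5 for the control culture against time 0 and from 3 to 5 for the insulin culture. The pairs of letter and hour also gave 2 for any hour and 2 for the change. With 1 mean per letter 1 was called over hours 1 to 8, 0 for the change and 0 in the insulin culture against time 0. Arrays centred on their median gave 2 for any hour, 1 for the change and 2 for the control culture. Leaving out 1 letter gave 1 to 3 over hours 1 to 8, 1 to 2 at any hour, 1 to 2 over hours 5 to 8, 0 to 1 for the change, 0 to 2 at single hours, 0 to 1 in the control and 1 to 2 in the insulin culture. The block changed no call other than those given in the report. Of 976 recomputed differences, 909 kept their call or lack of one, 38 gained a call and 29 lost it. In 0 of them did the sign change where either value was called. Changes of sign between 2 values that were not called count as kept, as for the second probe set of Insr. Over all probe sets the 2667 calls of hours 1 to 8 became 5896 with the block and 147 with 1 mean per letter. The 2051 of hours 5 to 8 became 4798 and 649. The 405 for the change became 2631 and 12, and the 378 at single hours became 2910 and 2074. In the control culture 1423 became 4247 and 978, and in the insulin culture 320 became 1880 and 85. For any hour 532 became 2516 with the block. The counts of the 10 genes thus rose with the block together with those of the whole array. The cause was not tested. Precision depends on the number of arrays and of independent repeats, and 3 days are the only independent repeats.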
